A study of Tamarix ramosissima and Tamarix chinensis with 11 samples.

Results

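Leaf RNA from wilted seedlings of *T. chinensis* was compared with leaf RNA from wilted seedlings of *T. ramosissima*, using the 3 water deficit libraries of each species, which are 6 of the 11 libraries sequenced. The *T. chinensis* water deficit plants (TC_WD) were grown from seed of an established stand in New Mexico, and the *T. ramosissima* water deficit plants (TR_WD) from seed of a stand in Montana. Both species were 14 weeks old when water was withheld in growth chambers. Leaves were taken when they became flaccid, which was on day 10 in TC_WD and on day 17 in TR_WD, so that species, seed origin and day of harvest cannot be told apart. Each library came from 1 plant. The well-watered controls, with 2 *T. chinensis* plants (TC_C) and 3 *T. ramosissima* plants (TR_C), were sub-irrigated and were used here only as the background against which the difference at wilting is read. By the paper's methods they were harvested with the wilted plants, on day 10 for TC_C and day 17 for TR_C. Species, seed origin and day of harvest therefore cannot be told apart in the controls either. Each species is represented by 1 seed source, and leaf identity could not be checked against marker genes, because the tables pair no assembled gene with a gene name.

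Saltcedars are riparian shrubs that have become invasive in the western United States. A leaf wilts when its cells lose turgor. In plants generally, falling water status raises abscisic acid, which closes stomata and switches on protective genes such as dehydrins and other late embryogenesis abundant proteins, while genes for photosynthesis and growth are often turned down. Plants that have reached the same visible wilting point need not be in the same transcriptional state, and the comparison asks how far the leaves of the species differed once both had wilted. Which of the genes below belong to these known responses was not analysed here.

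The 6 libraries held between 10245012 and 13086106 counted fragments, and between 4.92% and 7.56% of a library fell in its 10 highest genes. Of 117867 assembled genes, 10850 had no fragment in any of the 6 libraries, and 28854 passed the filter of more than 1 CPM (counts scaled to the library total) in at least 2 of them. These held between 99.0% and 99.3% of the fragments. At the edge of the filter, the second-highest CPM was 1.00661 in the lowest gene that passed and 0.994225 in the highest gene that did not. A group of 1304 genes passed with a CPM above 1 in *T. ramosissima* libraries alone and 1035 in *T. chinensis* libraries alone. These genes had to differ to be tested, and 167 and 156 of them are among the DEG below.

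At the wilting point, 632 genes were higher in *T. ramosissima* and 506 were higher in *T. chinensis*. This is 1138 differentially expressed genes (DEG) of 28854 tested, or 3.94%, with 2.19% higher in *T. ramosissima* and 1.75% higher in *T. chinensis*. For a gene to be a DEG, edgeR's quasi-likelihood test had to give it a Benjamini-Hochberg adjusted p (the false discovery rate, FDR) no higher than 0.05, and the species had to differ by 2-fold or more, which is 1 on the log2 scale. The differences were large. The median was 5.76-fold among genes higher in *T. ramosissima*, with quartiles of 3.64 and 12.6, and 5.01-fold among those higher in *T. chinensis*, with quartiles of 3.03 and 11.4. On the log2 scale, 748 of the DEG differed by at least 2, 221 by at least 4 and 66 by at least 6. The median standard error of a log2 fold change was 0.45 for the first set and 0.40 for the second. In each of the 1138 genes all 3 plants of one species lay on one side of all 3 plants of the other, where 29.5% of all tested genes were separated in this way, 15.3% with *T. ramosissima* higher and 14.2% with *T. chinensis* higher. The same libraries called the genes, and the call favours large and separated differences. Size and separation therefore describe the DEG and are not further evidence for them.

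**Figure D1:**
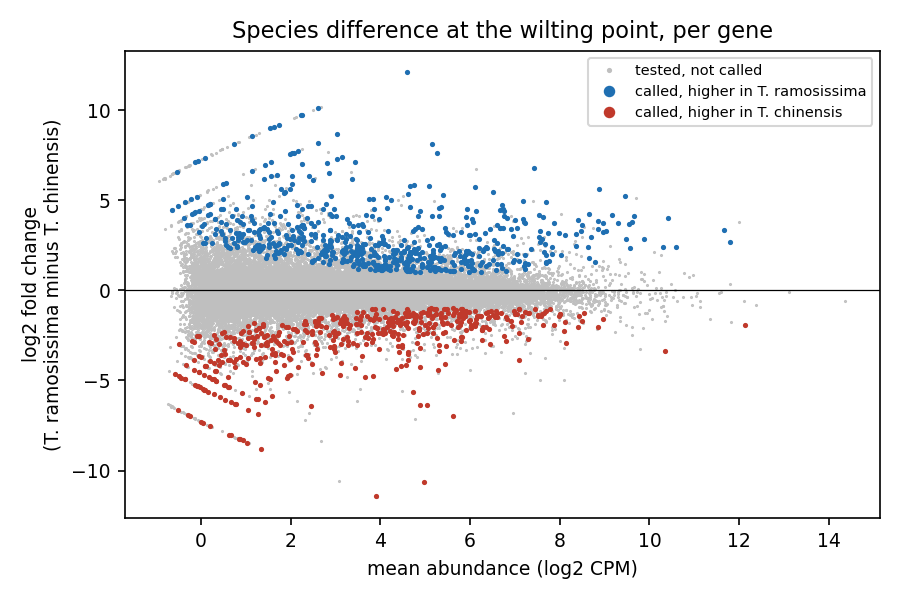
Each point is 1 of the 28854 genes tested, with its mean abundance in the 6 water deficit libraries on the horizontal axis (log2 CPM) and the log2 fold change of *T. ramosissima* minus *T. chinensis* on the vertical axis. Blue points are the 632 DEG higher in *T. ramosissima* and red points the 506 higher in *T. chinensis*; the rows of points at the left edge are genes with no fragment in one species, whose fitted fold change depends on the prior count.

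The number of DEG depended on single plants. It rose to 2619 without TR_WD replicate 1 and dropped to 305 without TC_WD replicate 2, of which 36.7% were higher in *T. ramosissima*. It was 2 without TR_WD replicate 3 and 0 without TC_WD replicate 1, TC_WD replicate 3 or TR_WD replicate 2, although between 5200 and 5722 genes then had an unadjusted quasi-likelihood p under 0.05, where 7188 had one with all 6 plants. Under stricter limits, with FDR 0.001 and 2 on the log2 scale, the quasi-likelihood test called 0 genes (2256 had an unadjusted p under 0.05 and a difference of this size), limma-voom and limma-trend called 0, edgeR's exact test called 839 or 2.91% (491 higher in *T. ramosissima* and 348 higher in *T. chinensis*, which are 1.70% and 1.21% of the genes tested) and DESeq2 called 822.

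The share of genes that were DEG was higher among abundant genes. TPM (a transcript abundance scaled by length and by library) was averaged over the 6 libraries. Of 2438 tested genes under 1 TPM, 1.23% were higher in *T. ramosissima* and 1.39% were higher in *T. chinensis*. Between 1 and 10 TPM the shares were 1.91% and 1.74% of 11483 genes, and between 10 and 100 TPM they were 2.26% and 1.73% of 13440 genes. Of 1493 genes at 100 TPM or more, 79 were higher in *T. ramosissima* (5.29%) and 40 were higher in *T. chinensis* (2.68%). Among the 59 genes at 1000 TPM or more the numbers were 5 and 2. The median absolute log2 fold change over all genes of a class was 0.74 under 1 TPM, 0.62 between 1 and 10 TPM, 0.38 between 10 and 100 TPM and 0.49 at 100 TPM or more. The share of genes with separated plants was between 27.7% and 33.0% in these 4 classes.

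The share of all TPM held by each of the 2 sets was taken in every library. The water deficit libraries chose the sets, so the direction of the gap between TC_WD and TR_WD was fixed by that choice. The 632 genes higher in *T. ramosissima* held 1.19%, 1.36% and 1.02% of all TPM in TC_WD replicates 1, 2 and 3, and 4.49%, 9.98% and 7.72% in TR_WD replicates 1, 2 and 3. In well-watered leaves, which did not choose these genes, they held 7.76% and 9.08% in the TC_C plants and between 8.40% and 9.67% in the TR_C plants. In well-watered plants of both species these genes therefore made up about as much of the leaf transcriptome as in TR_WD replicates 2 and 3. The 506 genes higher in *T. chinensis* held between 2.66% and 3.14% of TPM in TC_WD and between 0.762% and 0.945% in TR_WD. Their share was 1.14% in both TC_C plants and between 0.825% and 0.868% in the TR_C plants.

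The level of each gene was next set against its mean in well-watered leaves, taken as the midpoint of the TC_C and TR_C means of log2 CPM. Over the genes higher in *T. ramosissima*, the median lay at −2.06, −2.05 and −2.14 on the log2 scale in the 3 TC_WD plants. In TR_WD it lay at −0.09, 0.41 and 0.35 in replicates 1, 2 and 3, and in the 5 controls it lay between −0.16 and 0.15. Over the genes higher in *T. chinensis*, the median was 1.62, 1.55 and 1.71 in TC_WD and −0.42, −0.53 and −0.47 in TR_WD, with controls between −0.31 and 0.25. Over all genes tested, the medians of all libraries lay between −0.02 and 0.02. TC_WD was the farther of the water deficit groups from the well-watered level in 511 of the 632 genes higher in *T. ramosissima* (80.9%) and in 387 of the 506 higher in *T. chinensis* (76.5%), where it was the farther in 64.2% of all genes tested. In 351 of the 632 genes TC_WD lay below the well-watered level and TR_WD above it, in 263 both lay below it and in 18 both lay above it. In 319 of the 506 genes TC_WD lay above and TR_WD below, in 167 both lay above and in 20 both lay below. With the genes called without TR_WD replicate 1 the shares were 83.4% of 1593 genes and 72.5% of 1026 genes. Because the well-watered level is a midpoint of the species, a gene that already differed when watered can lie on both sides of it without any change. These counts and shares are therefore not responses of each species against its own controls. In bulk leaf tissue, a change in the make-up of the leaf and a change in RNA per cell cannot be told apart.

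**Figure D2:**
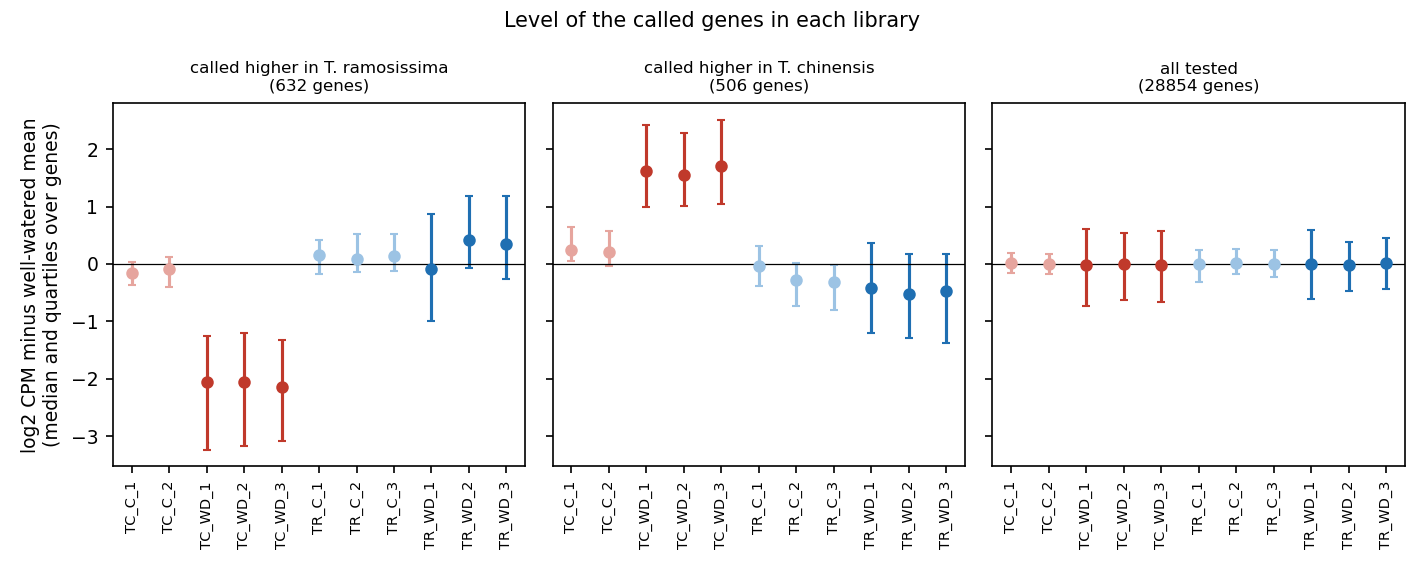
For each of the 11 libraries, the point is the median over genes of log2 CPM minus the well-watered mean of the gene, and the bar spans the quartiles over genes, for the DEG higher in *T. ramosissima*, the DEG higher in *T. chinensis* and all genes tested. The TC_WD plants lie near −2 in the first panel and near 1.6 in the second, while the TR_WD plants lie between −0.53 and 0.41.

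The plants of a species were not equally far along this difference. Between 2 libraries, the root mean square difference in log2 CPM over the 28854 genes was 1.33 ± 0.0971 (SD over 9 pairs) between the species, 0.926 ± 0.102 (SD over 3 pairs) within TC_WD and 1.02 ± 0.104 (SD over 3 pairs) within TR_WD. The biological coefficient of variation, edgeR's estimate of the spread between plants beyond counting error, was 0.414 for the 6 libraries, 0.384 within TC_WD and 0.440 within TR_WD. It was 0.368 without TR_WD replicate 1, and between 0.396 and 0.428 without any 1 of the other plants. The well-watered comparison had 0.306. On the first principal component of log2(TPM + 1), which held 49.0% of the variance between the 6 libraries, the scores were −77.5, −56.4 and −80.3 in TC_WD and 28.8, 97.5 and 87.9 in TR_WD. The groups did not overlap, and TR_WD replicate 1 lay between TC_WD and the other TR_WD plants. The difference of the means was 143 (exact permutation test, two-sided p = 0.1, the smallest that 20 arrangements of 3 against 3 allow).

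To place each plant without letting it choose the genes, the 1000 genes with the smallest p were taken from a fit without that plant, and its level was expressed as a position between the species means of the remaining plants, with 0 for *T. chinensis* and 1 for *T. ramosissima*. The median position was 0.13, 0.27 and 0.09 in TC_WD replicates 1, 2 and 3 and 0.51, 0.95 and 0.97 in TR_WD replicates 1, 2 and 3. TR_WD replicate 1 was therefore midway, and 511 of its 1000 genes were nearer to the *T. ramosissima* mean, where between 698 and 866 genes were nearer to the own species in the other plants. In the 1593 genes called higher in *T. ramosissima* without TR_WD replicate 1, that plant had a median of −0.88 relative to the well-watered level, where TR_WD replicates 2 and 3 had 0.26 and 0.11 and the TC_WD plants had between −1.90 and −1.78. These genes held 7.0% of its TPM, 18.4% and 14.6% of the TPM of TR_WD replicates 2 and 3 and between 2.53% and 3.32% in TC_WD. In the 1026 genes higher in *T. chinensis*, its median was 0.52, the only TR_WD median above the well-watered level, with −0.54 and −0.48 in the other TR_WD plants and between 1.52 and 1.69 in TC_WD.

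**Figure D3:**
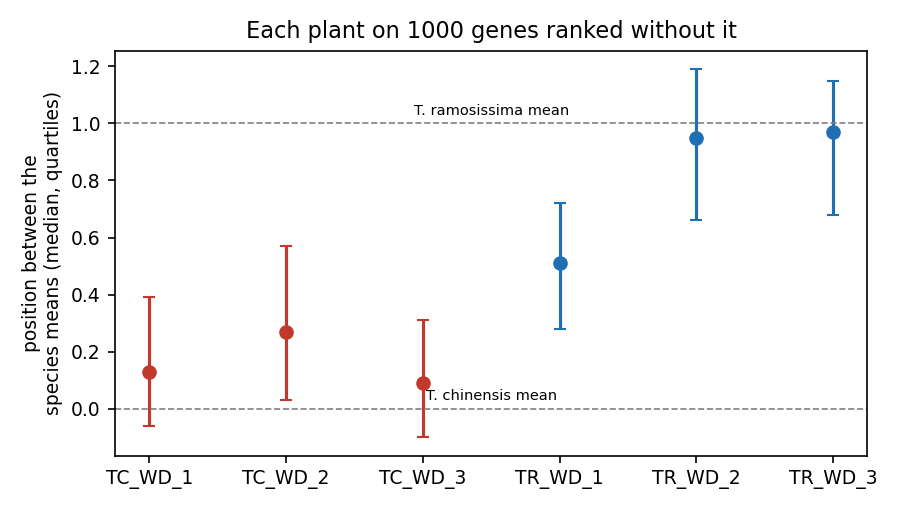
The vertical axis is the position of each water deficit plant between the *T. chinensis* mean (0) and the *T. ramosissima* mean (1) over 1000 genes ranked in a fit without that plant; points are medians and bars are quartiles over genes. TR_WD replicate 1 stands at 0.51, between the TC_WD plants (0.09 to 0.27) and the other TR_WD plants (0.95 and 0.97).

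Most of the DEG at wilting differed little between the species when watered, although this held for a smaller share of them than of all genes. Well-watered leaves were compared with the same test in libraries that share no plant with the comparison at wilting, and 2 genes of 28225 were DEG (0.00709%), 1 in each direction (0.00354% each), with 2181 at an unadjusted p under 0.05. The number was 0 without either TC_C plant and 9, 1 and 3 without TR_C replicates 1, 2 and 3, and it was 339 by edgeR's exact test and 333 by DESeq2. Of the 1138 DEG at wilting, 1029 were also tested in well-watered leaves, and 1 of them was a DEG there in the same direction. The well-watered fit had 2 plants against 3. At wilting, fits of that size gave 0, 305 and 0 DEG without TC_WD replicates 1, 2 and 3. The numbers of DEG in the water states therefore cannot be set against each other. The absolute log2 fold change in well-watered leaves was under 0.5 in 630 of the 1029 genes (61.2%), where it was under 0.5 in 77.5% of all 26475 genes tested in both water states. It was at least 1 in the direction seen at wilting in 211 genes (20.5%), where this was so for 6.38% of all genes, and at least 1 in the opposite direction in 10 genes. The share of 20.5% was 13.2% for the genes called without TR_WD replicate 1 and 26.5% for those called without TC_WD replicate 2. In the direction seen at wilting, the median log2 fold change of the 1029 genes was 2.33 at wilting and 0.27 in well-watered leaves. The genes were selected for a large value at wilting and not when watered, so the gap between these medians is in part set by that choice.

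The sign of the difference was nevertheless shared by most DEG. It was the same in both water states in 791 of the 1029 genes (76.9%, exact Clopper-Pearson 95% interval from 74.2% to 79.4%, which covers counting error only and takes genes as independent, which they are not). It was the same in 62.5% of all genes tested in both. By direction, 446 of 606 genes higher in *T. ramosissima* kept their sign (73.6%) and 345 of 423 genes higher in *T. chinensis* kept it (81.6%). In the direction seen at wilting, the CPM of well-watered plants did not overlap between the species in 127 of the 606 genes and 182 of the 423. In the opposite direction it did not overlap in 31 of the 606 and 7 of the 423. Of all genes tested in well-watered leaves, 8.46% did not overlap with *T. ramosissima* higher and 14.4% with *T. chinensis* higher. Over all genes tested in both water states, the absolute log2 fold change had a median of 0.46 at wilting and 0.21 in well-watered leaves, and the fold changes had a Pearson correlation of 0.447 and a Spearman correlation of 0.354 across 26475 genes, which are not independent replicates.

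Genes with very large differences at wilting more often differed when watered as well. Among DEG with an absolute log2 fold change between 1 and 2, 5.14% of 389 genes had a log2 fold change of at least 1 in the same direction in well-watered leaves. The share was 23.8% of 480 genes between 2 and 4, 37.3% of 110 genes between 4 and 6 and 72.0% of 50 genes at 6 or more. Other measures did not rise steadily. In the same order, the sign was shared by 74.6%, 79.4%, 68.2% and 90% of the genes. The median well-watered log2 fold change in the direction seen at wilting was 0.18, 0.34, 0.27 and 2.32. In 27 of the 66 DEG at 6 or more, one species had no fragment in any of its wilted plants, and a fitted fold change then depends on the prior count. A set of 26 DEG differed by at least 4 on the log2 scale in the same direction in well-watered leaves, 23 with *T. ramosissima* higher and 3 with *T. chinensis* higher. Their well-watered CPM did not overlap in 20, where 22.9% of all genes tested in well-watered leaves did not overlap in either direction. The same well-watered plants chose the 26 genes, so this count describes them and is not further evidence. For 13 of the 26, no more than 3 fragments were counted over all plants of the lower species.

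**Figure D4:**
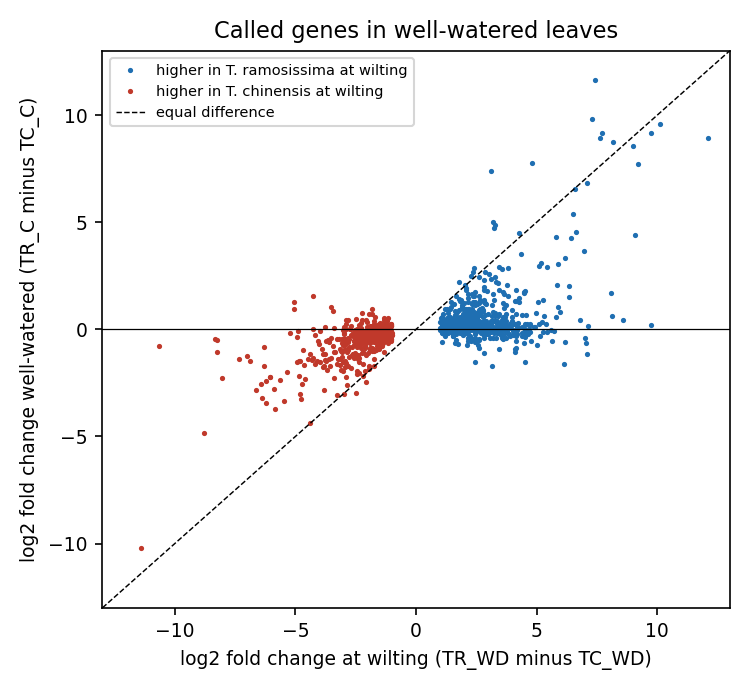
Each point is 1 of the 1029 DEG at wilting that were also tested in well-watered leaves, with the log2 fold change at wilting on the horizontal axis and that in well-watered leaves on the vertical axis, both as *T. ramosissima* minus *T. chinensis*. Most points lie near the horizontal line at 0, and a minority lies near the dashed line of equal difference.

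The change of the species difference between water states was tested with a species by treatment interaction fitted to the 11 libraries. By edgeR's quasi-likelihood test, 20 genes of 31320 (0.0639%) passed with FDR 0.05 and a log2 difference of 1 or more in size, and 3630 had an unadjusted p under 0.05. In 17 of them *T. ramosissima* minus *T. chinensis* was more positive at wilting than when watered (0.0543%), and in 3 it was more negative (0.00958%). The test uses the plants that chose the DEG at wilting, to which 19 of the 20 belong. The number was 849 without TR_WD replicate 1, 35 without TC_WD replicate 2, between 2 and 10 without any 1 of the other plants and 870 by DESeq2. For the other DEG at wilting the interaction did not pass with all plants in the fit, which does not show that their species difference was equal in both water states.

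The following 4 genes, 2 in each direction, were those with the smallest quasi-likelihood p among DEG that either already differed in well-watered leaves or had an absolute log2 fold change under 0.5 there. Already differing means a well-watered log2 fold change of at least 1 in the same direction and no overlap of CPM, with no limit on p. The files give them no name, and their function is not stated here. TRINITY_DN36985_c1_g1 stood for the 391 genes higher in *T. ramosissima* and flat when watered. It had 10.6, 14.6 and 13.5 CPM in TC_WD replicates 1, 2 and 3 and 208, 216 and 212 CPM in TR_WD. In well-watered plants it had 174 and 143 CPM in TC_C and 137, 147 and 147 CPM in TR_C. The water deficit groups were far apart and the control groups overlapped. The log2 fold change was 4.01 at wilting (standard error 0.22, adjusted p = 0.00773 from edgeR's quasi-likelihood test) and −0.08 when watered (standard error 0.16). The other tested gene of its Trinity component differed by 0.63 on the log2 scale (adjusted p = 0.333, edgeR's quasi-likelihood test).

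TRINITY_DN35478_c0_g2 stood for the 239 genes higher in *T. chinensis* and flat when watered. It had 43.2, 44.9 and 43.9 CPM in TC_WD and 5.77, 2.58 and 3.61 CPM in TR_WD. Its CPM was 6.23 and 5.43 in TC_C and 4.21, 5.09 and 3.41 in TR_C. Only the wilted *T. chinensis* plants were high among the 11 libraries. The log2 fold change of *T. ramosissima* minus *T. chinensis* was −3.51 at wilting (standard error 0.29, adjusted p = 0.0225, edgeR's quasi-likelihood test) and −0.40 when watered (standard error 0.31). The other tested gene of its component differed by −0.44 (adjusted p = 0.572, edgeR's quasi-likelihood test).

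TRINITY_DN38037_c0_g1 stood for 64 genes higher in *T. ramosissima* that already differed in well-watered leaves by this rule. Of the 606 genes higher in *T. ramosissima* that were tested when watered, 0 were DEG there in that direction. It had 0.976, 1.15 and 1.45 CPM in TC_WD, from 10 to 16 fragments, and 19.2, 30.7 and 32.0 CPM in TR_WD. When watered it had 5.51 and 9.07 CPM in TC_C and 19.8, 40.0 and 10.8 CPM in TR_C. The species were separated in both water states, narrowly when watered (10.8 against 9.07 CPM) and with a wider gap at wilting. The log2 fold change was 4.49 at wilting (standard error 0.36, adjusted p = 0.0225, edgeR's quasi-likelihood test). It was 1.71 when watered (standard error 0.56, adjusted p = 0.528, same test), so that the well-watered difference did not pass. The interaction of 2.79 had an adjusted p of 0.14 by the quasi-likelihood test.

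TRINITY_DN37827_c0_g1 stood for 89 genes higher in *T. chinensis* that already differed when watered by the same rule. Of the 423 genes higher in *T. chinensis* that were tested when watered, 1 was a DEG there in that direction. It had 70.8, 90 and 58.8 CPM in TC_WD and 1.92, 4.46 and 3.94 CPM in TR_WD. The controls lay at 86.8 and 94.7 CPM in TC_C and at 2.78, 5.26 and 4.62 CPM in TR_C. The species stood apart by nearly the same amount whether watered or not. The log2 fold change was −4.42 at wilting (standard error 0.39, adjusted p = 0.0225, edgeR's quasi-likelihood test) and −4.40 when watered (standard error 0.21, adjusted p = 0.00916), with an interaction of −0.01 (standard error 0.42). On the length-scaled measure the gap was smaller, with 20, 24.3 and 20.6 TPM in TC_WD and 1.05, 7.86 and 4.08 TPM in TR_WD. The fragments counted per TPM, which grow with the length of the contigs that took the reads, were between 31.5 and 48.5 in TC_WD and between 6.36 and 22.9 in TR_WD, and did not overlap between the species in well-watered plants either.

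All 4 genes lost the call, with adjusted p between 0.0615 and 0.0846 by the quasi-likelihood test, without TC_WD replicate 1, TC_WD replicate 3 or TR_WD replicate 2. Without TR_WD replicate 3, the call of TRINITY_DN36985_c1_g1 held (adjusted p = 0.0381) and those of the other 3 did not (adjusted p = 0.0702), and none changed direction.

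**Figure D5:**
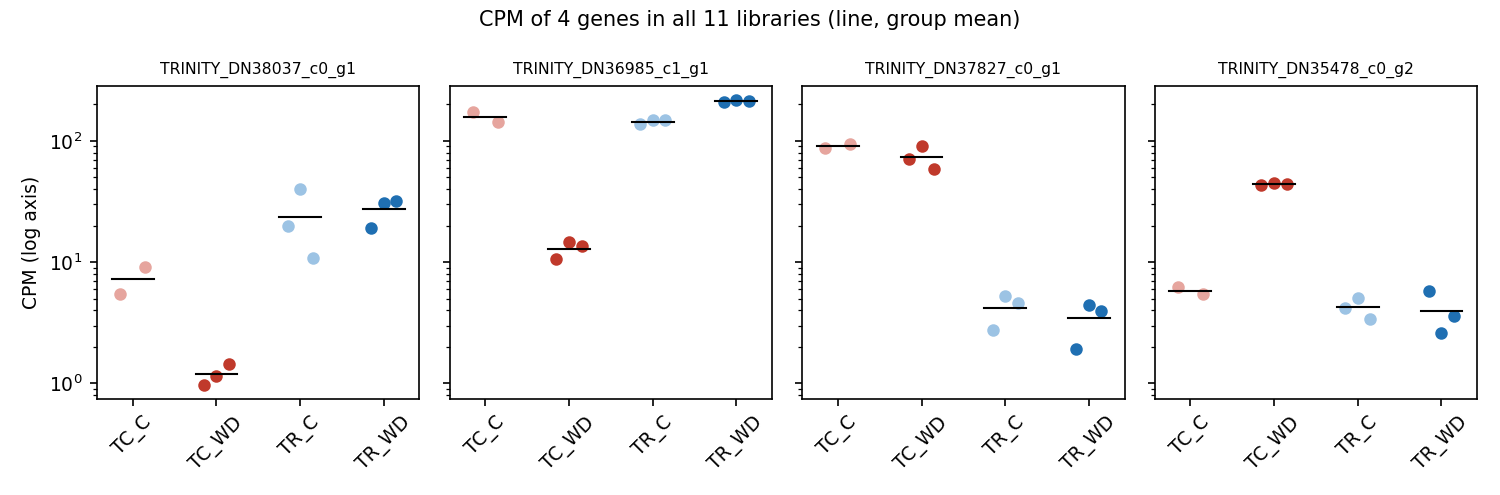
CPM of the 4 genes in each of the 11 libraries on a log axis, by group, with 1 point per plant and a line at the group mean. From left to right, the first panel shows the gene higher in *T. ramosissima* in both water states. The second shows the gene that lay below the controls in wilted *T. chinensis* and above them in wilted *T. ramosissima*. The third shows the gene higher in *T. chinensis* in both water states, and the fourth the gene higher in wilted *T. chinensis* alone.

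Few genes were detected in wilted leaves of a single species. A gene was counted as such when each of the 3 wilted plants of one species had at least 10 fragments and each of the 3 of the other had 0. This was so for 15 genes in *T. ramosissima* and 14 in *T. chinensis*. The filter was passed by 13 and 13 of them, only through the species that had them, and 12 and 12 were DEG. Of all genes tested, 3.94% were DEG. The same libraries chose these genes and called the DEG, so that the calls are not further evidence. The fragments of the 15 and 14 genes, summed over the 3 plants, were between 44 and 1588 in *T. ramosissima* (median 194) and between 32 and 1177 in *T. chinensis* (median 103). Against a floor of 3 fragments over the group at 0, these were at least 14.2-fold to 511-fold higher in *T. ramosissima* and at least 11-fold to 406-fold higher in *T. chinensis*. Median levels were 6.38 TPM and 8.19 TPM in the species that had them.

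In well-watered leaves all 29 genes had fragments in the species that had them at wilting, and most were present in both species. Of the 15 *T. ramosissima* genes, 4 had no fragment in the TC_C plants and 7 had no more than 3 over both. Of the 14 *T. chinensis* genes, 1 had no fragment in the TR_C plants and 2 had no more than 3 over the 3 plants. The most abundant of the 15 had 274, 1004 and 310 fragments in TR_WD and 576, 440 and 1223 in TR_C, and 1 and 2 in TC_C, so that it was near absent from *T. chinensis* in both water states. The full rule was met when watered by 2 of the 15 and 1 of the 14. The last had 340, 220 and 397 fragments in TC_WD, 162 and 132 in TC_C and 0 in all 6 *T. ramosissima* plants. The number of genes detected in a single species at wilting was 71, 76 and 49 without TC_WD replicates 1, 2 and 3, and 88, 59 and 75 without TR_WD replicates 1, 2 and 3, since fewer plants then had to meet the rule. Among well-watered plants, with only 2 in TC_C, the same rule was met by 13 genes in *T. ramosissima* and 9 in *T. chinensis*. Detection in a single species was therefore also seen in well-watered leaves. The counts in the water states cannot be set against each other, because fewer plants had to meet the rule when watered.

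A single gene can be divided over several assembled genes, and reads of the species could then fall on different ones. Assembled genes that share a Trinity component (the same DN and c numbers) were therefore examined together. Of the 1138 DEG, 43.4% had another tested gene in their component, where 45.3% of all tested genes had one. At least 2 DEG fell in 50 components, in one direction in 45 and in opposite directions in 5. Of these 5 components, 3 were still called when their counts were summed. With counts summed per component, 919 of 21802 components were called, 544 higher in *T. ramosissima* and 375 higher in *T. chinensis*. Of the genes detected in a single species, 9 of the 15 and 10 of the 14 had another tested gene in their component, which in 2 and 4 of them differed by at least 1 on the log2 scale in the opposite direction.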

How the data were processed

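RNA-seq of leaves was analysed for 6 water deficit libraries, with 5 well-watered libraries as background. The authors trimmed the reads, built a single Trinity assembly from both species, aligned with Bowtie and estimated abundance with RSEM (version: not given in the sources used here). As deposited, the expected counts are estimated fragments per assembled gene without normalization, of which between 3.11% and 4.00% per library were not whole. The deposited TPM values are RSEM's, per library. RSEM shares fragments among contigs, so versions of a gene can divide its counts.

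Counts were rounded and tested with edgeR 4.0.16 in R 4.3.3 (TMM, quasi-likelihood, Benjamini-Hochberg over all genes tested) on genes that exceeded 1 CPM in 2 or more compared libraries. Only the groups compared entered a fit, except the interaction. A standard error is the log2 fold change divided by the root of F. Printed CPM is scaled by library total. DESeq2 1.42.0, limma 3.58.1 and other filters, scalings and samples were alternatives. Values for genes called without TR_WD replicate 1 or TC_WD replicate 2, and the position of a plant among genes ranked without it, were chosen after seeing the data. The 4 printed genes were, in each direction, the DEG with non-overlapping CPM and the smallest p among those with a log2 fold change of at least 1, the same direction and no overlap in well-watered leaves, and among those under 0.5 there. Scripts were tested on simulated data. The members, groups and tests were chosen with earlier results of these data known. The tables name no gene, so gene lists and sequences were not used here.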

Additional observations from a re-analysis of the deposited data

Results flagged for a closer look

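The species difference changed between water states in 2 of the 4 genes described above, by a species by treatment interaction fitted to the 11 libraries. For TRINITY_DN36985_c1_g1 the log2 fold change of *T. ramosissima* minus *T. chinensis* was larger at wilting than when watered by 4.09 (standard error 0.26, adjusted p = 3.94e-04 from edgeR's quasi-likelihood test). All 3 plants of TC_WD lay below all other plants, and all 3 plants of TR_WD lay above all other plants. For TRINITY_DN35478_c0_g2 the change was −3.11 (standard error 0.41, adjusted p = 0.0318 by the quasi-likelihood test), and all 3 plants of TC_WD lay above all other plants. Both genes were chosen for a large difference at wilting and a small one when watered, so that these values describe them and do not support the pattern. With 3 plants or fewer per group, no group was large enough for a formal test of single outlying plants. The position of TR_WD replicate 1 given above is a description and not such a test.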

How the results depend on the processing

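The printed genes were followed in 10 alternatives, and none changed direction. These were the exact test, DESeq2, library size only, the replicate block and the fits without 1 water deficit plant. The other alternatives below were not checked for these genes. The number of DEG at wilting (1138) stayed within 1.5 times under median-ratio factors, library size only, both TPM scales of limma-trend, a filter of 3 libraries or of a mean count of 50, robust fitting, component sums, thinning and no fold minimum, between 859 and 1286. It was 3505 by the exact test, 3514 by DESeq2, 508 by limma-voom, 5630 with no filter beyond a count above 0, 3084 in 1 fit of all 4 groups and 0 at an FDR of 0.005. Leaving out 1 plant gave 0 to 2619. Under the stricter limits (FDR 0.001 and 2 on the log2 scale), where 0 genes passed, the exact test gave 839, DESeq2 822, no filter 1946 and 1 fit of all groups 11, and leaving out any 1 plant gave 0. The causes of these differences were not tested. Genes detected in 1 species (29) were 75 with at least 5 fragments, 14 with at least 20, 72 with up to 1 fragment in the other species and 10 by component, and 49 to 88 without 1 plant, where fewer plants had to meet the rule. The share with the same sign in well-watered leaves (76.9%) was 71.0% to 76.3% without 1 control plant, 70.1% for genes called without TR_WD replicate 1 (an alternative chosen after seeing the data), and 74.6% to 77.6% otherwise. Well-watered DEG (2) were 339 by the exact test and 333 by DESeq2, and 0 to 9 without 1 plant. Interaction genes (20) were 870 by DESeq2 and 8 by limma-voom, and 2 to 849 without 1 plant. On 3 other scales the PC1 difference had the smallest p that 3 against 3 allow (exact permutation test, 0.1), which says nothing about its stability.

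The replicate numbers pair nothing in the labels, and the deviations of same-numbered plants of the water deficit groups had correlations of 0.108, 0.0658 and −0.0739 across genes. With the replicate block, 0 genes were DEG at wilting (6514 at an unadjusted p under 0.05), 0 at the stricter thresholds, 116 were DEG in well-watered leaves and 5 passed the interaction.

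At 10245012 fragments in the smallest library, 1 CPM is about 10 fragments, so that differences of low genes rest on few fragments. With 3 plants per species, differences that single plants decide cannot be settled here.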

Other observations

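The fragments counted per TPM of a gene grow with the length of the contigs that took its reads. Relative to the median gene of each library, this measure was compared in 19926 genes with at least 10 fragments and 1 TPM in all 6 water deficit libraries. The median absolute log2 difference between the species was 0.06. In 110 genes (0.552%) the plants of the species did not overlap and differed by 2-fold or more, with *T. ramosissima* higher in 43 and lower in 67. All 5 well-watered libraries, which did not choose these genes, were measured for 89 of the 110, and the sign was the same in 80, with a median log2 difference of 0.54 in the direction seen at wilting. In 17 of the 89 the difference was again 2-fold or more in that direction, where 0.332% of 18975 genes differed by 2-fold in either direction in well-watered leaves. Among 691 DEG that were measured, 13 (1.88%) had such a difference.

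From the same ratio, length relative to the median gene had a median of 0.599 in the 14 genes detected only in wilted *T. chinensis* and of 0.871 in the 15 detected only in wilted *T. ramosissima*. It was 1.15 in the DEG higher in *T. chinensis*, 0.977 in those higher in *T. ramosissima* and 0.992 in all genes tested.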
